A study of Talaromyces verruculosus with 6 samples.

Results

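Silent runs are stretches of neighbouring genes that gave almost no messenger RNA, with or without pectin, in the filamentous fungus Talaromyces verruculosus strain TS63-9. A gene was called silent when its mean level was below 0.5 RPKM (reads per kilobase of exon, scaled to library size) in the 3 pectin libraries and also below 0.5 RPKM in the 3 control libraries. A run held at least 3 silent genes that followed each other on one contig, a continuous piece of the genome assembly. Of 11326 annotated genes, 1952 were silent, and 791 of these (40.5%) lay in 197 runs. The genes were thus selected on their RPKM in both groups, so their low level is a description and not a result. The samples were actively growing mycelia of one strain, taken 24 h after transfer to a basic medium with 5 g/L pectin (3 libraries) or without pectin (3 libraries). Pectin is a plant cell wall polysaccharide rich in galacturonic acid, and the series asks which genes for its breakdown respond to it. The 3 libraries of a group are described as biological replicates.

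In filamentous fungi, genes of one pathway often lie side by side and are switched on or off together. The best known cases are clusters for secondary metabolites, small molecules such as pigments, toxins and antibiotics, many of which stay off in laboratory culture. Large multi-domain enzymes, the polyketide synthases and nonribosomal peptide synthetases, are typical of such clusters. Silent stretches in fungi have also been linked to closed chromatin near chromosome ends. The files pair locus tags with no gene names or products, so none of these roles can be assigned to the genes described here, and genes are given by their position on the contigs named in the files.

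The 6 libraries held 10320372 to 11393959 reads on annotated exons, and 10394 to 10548 genes had at least 1 such read. For a gene of the median coding length in the runs, 1101 bases, the threshold of 0.5 RPKM corresponded to 8.89 to 9.94 reads in a library. A count of 0 in such a gene allows 3 reads, or up to 0.151 to 0.169 RPKM, and covers counting error only. Most genes in the runs lay far below the threshold. Their median level was 0.0467 RPKM over the 6 libraries, and 537 of 791 (67.9%) averaged under 0.1 RPKM. The threshold nevertheless cut through a continuum. Just inside it, 16 genes in runs had a higher group mean between 0.45 and 0.5 RPKM, with 0.497 RPKM as the highest. Just outside it, 11 of the 362 genes that border a run had a higher group mean between 0.5 and 0.55 RPKM, with 0.507 RPKM as the lowest. In at least 1 library, 92 genes in runs reached 0.5 RPKM, up to 1.09 RPKM.

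Silent genes lay beside other silent genes more often than their overall share. After a silent gene the next gene on the contig was also silent in 43.6% of cases, and after a gene that was not silent in 11.8% of cases, beside 17.2% of all genes. Of the 197 runs, 109 held 3 genes, 44 held 4, and 44 held 5 or more, up to 12. The runs spanned 3.274 to 48.309 kb each, with a median of 8.687 kb, and 2107 kb in all. They lay on 93 of the 286 contigs.

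Genes on contigs of middle size were most often part of a run. On contigs with 11 to 25 annotated genes 87 of 609 genes (14.3%) were in runs, and on contigs with 26 to 50 genes 177 of 1385 (12.8%). The share was 6.43% on contigs with 51 to 100 genes, 5.68% with 101 to 200 and 5.29% on the 11 contigs with over 200. On contigs with 10 genes or fewer it was 3.85%, where few places can hold a run of 3. The share of silent genes, which has no such limit, was 26.6% on contigs with 11 to 25 genes and 14.7% on contigs with over 200. Distance from the outermost annotated gene edge gave no steady course on contigs with over 100 genes, and smaller contigs were not examined apart. Over all contigs 6.95% of genes within 10 kb of it were in runs. The share was 11.3% between 10 and 25 kb and 4.45% more than 200 kb away. On contigs with over 100 genes it was 6.14% within 10 kb, 6.59% at 10 to 25 kb and 4.59% at 25 to 50 kb. Further in, it was 6.34% at 50 to 100 kb, 6.30% at 100 to 200 kb and 4.45% beyond 200 kb. Of the 197 runs, 21 reached the first or last annotated gene of a contig, and 1 of these filled its contig. How many runs would do so if placed at random was not worked out, so this count is not called few or many.

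**Figure D1:**
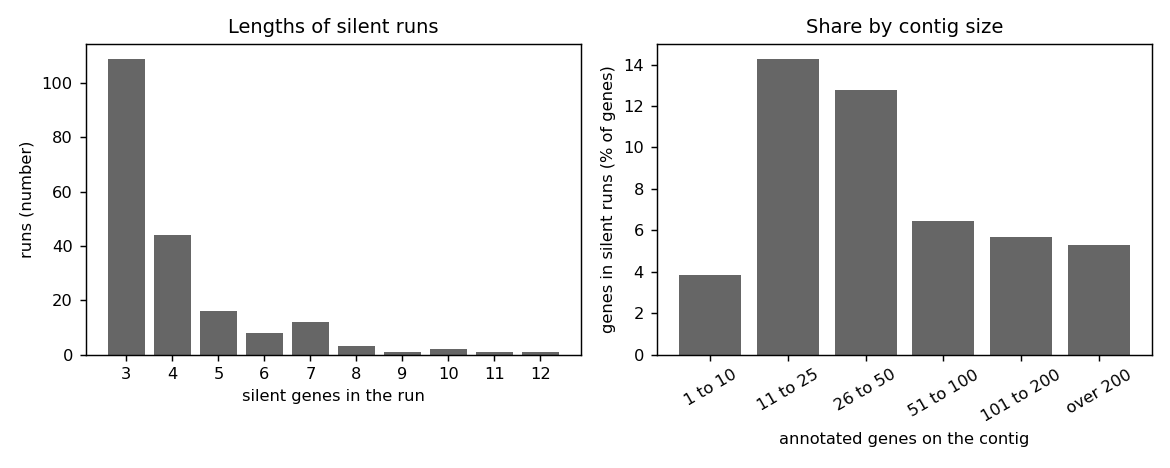
Left, the number of silent runs (vertical axis) by the number of genes in the run; 109 of 197 runs held 3 genes and 1 held 12. Right, the percentage of annotated genes that lay in silent runs, by the number of genes on the contig; the share was 14.3% on contigs with 11 to 25 genes and 5.29% on contigs with over 200.

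In exon number and strand, genes in runs resembled other genes. Their coding sequences had a median of 1101 bases, against 1020 bases in silent genes outside runs and 1338 bases in genes that were not silent. The median exon number was 3 in each of these classes, and 24.5% of genes in runs had 1 exon, against 23.4% of silent genes outside runs and 21.8% of genes that were not silent. Both strands were used, with 48.8% of the genes in runs on the plus strand. All genes of a run lay on one strand in 18 runs, and 179 runs mixed both. Neighbours within a run were on the same strand in 39.4% of 594 pairs and were divergent, with their starts facing each other, in 33.0%. For the 8063 pairs in which neither gene was silent these shares were 41.5% and 29.4%. Gaps within runs were somewhat wider, with a median of 925 bases against 781 bases between genes that were not silent.

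The runs differed from the other silent genes at both ends of the length range. Coding sequences over 5000 bases were found in 20 of 791 genes in runs (2.53%), against 7 of 1161 silent genes outside runs (0.603%) and 159 of 9374 genes that were not silent (1.70%). Coding sequences under 500 bases made up 7.71% of genes in runs, 14.0% of silent genes outside runs and 6.37% of genes that were not silent. No test was made of these differences. The 20 long genes were spread over 19 runs, 10 of which held 5 or more genes. RPKM divides by length, so a long gene can carry many reads and still count as silent.

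The longest coding sequence in a run, 16791 bases in 2 exons, lay on LHCL01000084 from 74154 to 91194 on the minus strand. It had 13, 16 and 13 exon reads in pectin libraries 1 to 3 and 13, 10 and 8 in control libraries 1 to 3. Every library thus held some reads of it, at similar numbers in both groups. The next, 15729 bases in 7 exons on LHCL01000006 from 453294 to 470047 on the plus strand, had 8, 8 and 15 exon reads with pectin and 22, 18 and 26 without. All 3 pectin libraries lay below every control, but the gene was selected on these same reads. The test with edgeR described below did not call it (adjusted p = 0.154, edgeR). By contrast, the single-exon coding sequence of 9360 bases on LHCL01000044 from 190494 to 199853 had 0, 1 and 0 reads with pectin and 0, 2 and 0 without. On the same run a coding sequence of 7749 bases lay beside it, from 181464 to 189509, with 4, 7 and 3 reads with pectin and 3, 4 and 2 without.

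The longest run by gene number had 12 genes on LHCL01000065 from 125059 to 154399, with 5 genes on the plus and 7 on the minus strand. It was 41 genes from the left end of its contig and 5 from the right. Its genes together had 27, 15 and 18 exon reads in pectin libraries 1 to 3 and 24, 14 and 17 in control libraries 1 to 3. The groups overlapped, and library 1 was the highest of each. The gene on its left edge was well expressed, at 17.5 RPKM with pectin and 19.2 RPKM without. The gene on its right edge had 0.543 RPKM with pectin and 0.743 RPKM without, and so barely ended the run.

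A run of 11 genes on LHCL01000097 from 25390 to 63710 took up 11 of the 22 genes of its contig. It had 10, 11 and 6 exon reads with pectin and 56, 24 and 15 without. The pectin libraries were thus all below the controls, and control 1 stood highest. The run was selected on these same reads, and no test was made of this difference. The genes of a run of 10 on LHCL01000094, from 67466 to 105806 at the right end of the contig, had 13, 16 and 9 reads with pectin and 44, 19 and 11 without. Here the groups overlapped and control 1 again stood out. The run of 9 genes on LHCL01000084, from 71892 to 120200, also ended its contig and had the widest span of all. It held the 16791-base coding sequence named above, which gave 13 of the run's 17 reads in pectin 1. The run had 17, 31 and 22 reads with pectin and 24, 13 and 9 without.

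On LHCL01000063 a run of 7 genes and a run of 10 genes were parted by 1 gene. The run of 10, from 130362 to 159857, had 6, 20 and 13 exon reads with pectin and 16, 17 and 11 without. The parting gene, from 128599 to 130218, had 0.23, 0.69 and 0.37 RPKM with pectin and 0.79, 0.52 and 0.38 RPKM without. Its mean was thus 0.430 RPKM with pectin, under the threshold, and 0.563 RPKM in controls, just over it. The run of 8 genes on LHCL01000044 from 172267 to 208770 held the 2 long coding sequences named above and had 25, 21 and 7 reads with pectin against 20, 11 and 11 without.

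**Figure D2:**
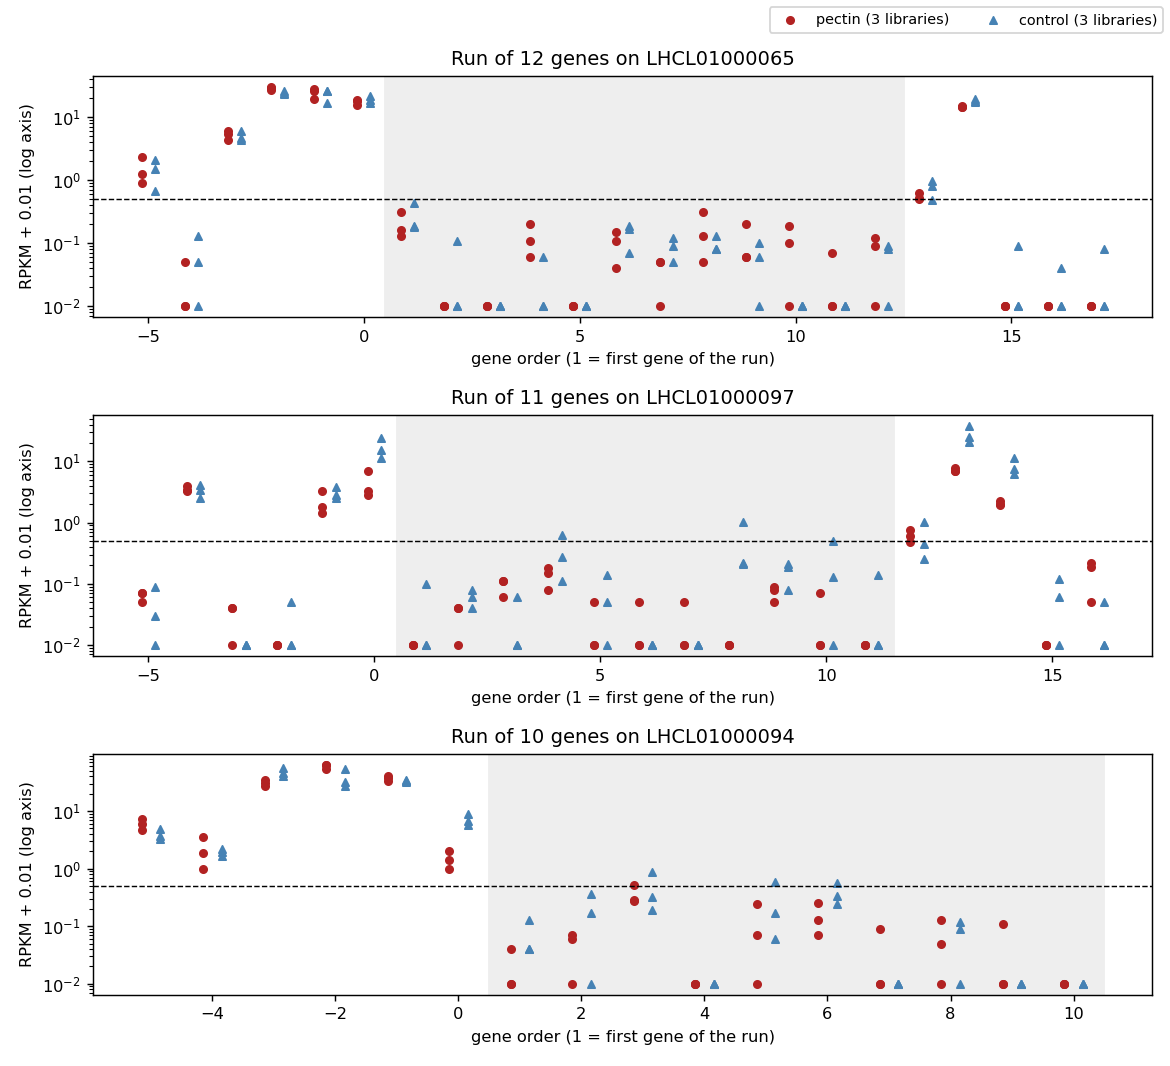
Level of each gene in and around the 3 longest silent runs, as RPKM + 0.01 on a log axis, against gene order; the shaded genes form the run and the dashed line marks 0.5 RPKM. Each point is 1 library (circles pectin, triangles control), and points at 0.01 are listed at 0. Within the shading single libraries of a few genes cross the line, while the gene on the left edge of the 12-gene run lies at 17.5 RPKM with pectin and 19.2 RPKM without.

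Among runs of at least 4 genes, the most exon reads fell on 7 genes on LHCL01000006 from 451705 to 484735, with 16, 27 and 19 reads with pectin and 72, 35 and 40 without. The 15729-base coding sequence gave 15 of the 19 reads in pectin 3 and 22 of the 72 in control 1. At the other extreme, 138 genes in runs (17.4%) had no exon read in any of the 6 libraries, against 160 silent genes outside runs (13.8%). Such genes were scattered: 101 runs held none of them, 6 runs held at least 3, and in 1 run no gene had a read. The longest of those 6 had 7 genes on LHCL01000096 from 42359 to 61688, 5 of them without reads. The other 2 genes had 3 exon reads in all: 1, 1 and 0 with pectin and 1, 0 and 0 without. The gene on the left of that run was at 1.48 RPKM with pectin and 1.47 RPKM without.

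All genes in runs together drew 1536, 1605 and 1521 exon reads in pectin libraries 1 to 3 and 2372, 1634 and 1606 in control libraries 1 to 3. As CPM (counts per 1e+06 exon reads of the library) this was 135, 150 and 138 with pectin, against 230, 147 and 142 in controls. Control 1 stood far above the other libraries, and the remaining controls lay within the range of the pectin libraries. Control 1 was the highest library in 95 of the 196 runs with any exon read, and the library next in order, pectin 2, in 28. Its surplus of 752 reads over the mean of controls 2 and 3 was spread over many genes, with 32.8% of it in the 10 genes that gained most and 46 reads in the run that gained most. Silent genes outside runs showed the same library, with 228, 243 and 245 CPM with pectin and 409, 253 and 246 CPM in controls. What sets control 1 apart was not tested. Without it the rule took 833 genes in 207 runs, and 772 of the 791 genes were among them.

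Single libraries detected different genes. Exon reads were found for 394, 425 and 398 of the 791 genes in pectin libraries 1 to 3 and for 439, 397 and 404 in control libraries 1 to 3. In all 6 libraries, 178 genes had a read. The groups overlapped in this measure as well.

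**Figure D3:**
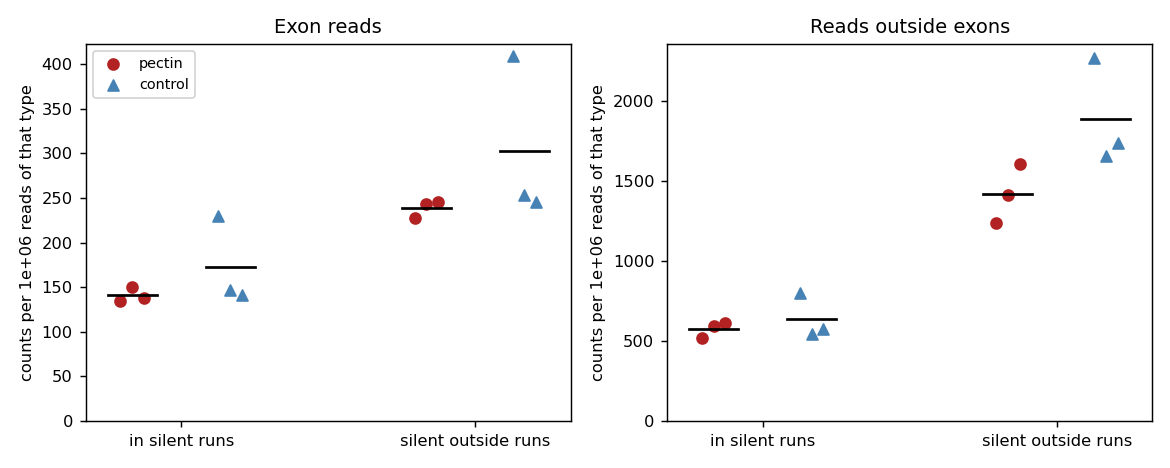
Counts per 1e+06 exon reads (left) and per 1e+06 reads outside annotated exons (right) that fell on genes in silent runs and on silent genes outside runs; each point is 1 library, circles pectin and triangles control, and lines are group means. Control 1 is the highest point in every set, at 230 CPM of exon reads in the runs, while the other 5 libraries lie between 135 and 150 CPM.

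Part of the faint signal came from spliced transcripts. Of the 597 genes in runs with several exons, 361 had at least 1 read that joined 2 exons, and such reads were found in 163 runs. They made up 29.9%, 28.7% and 23.5% of the exon reads of these genes in pectin libraries 1 to 3, and 33.3%, 31.1% and 27.9% in control libraries 1 to 3. In genes that were not silent the share was higher in every library, at 39.7% to 42.0% with pectin and 38.5% to 39.5% without.

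Reads counted to a gene but not to its annotated exons were not used by the rule, since the deposited RPKM was found to follow exon reads. They did not all lie in introns, because genes with 1 exon had them too: in the single-exon genes of the runs they were 25.8% to 30.1% of gene reads with pectin and 29.9% to 32.8% without. How the counting placed reads at the edges of a gene is not given in the sources used here. On genes in runs there were 1056, 1186 and 1113 reads outside exons with pectin and 1633, 1493 and 1318 without. Per 1e+06 reads outside exons of the library this was 516, 590 and 612 with pectin and 797, 542 and 577 without, so that the groups overlapped and control 1 was the highest. They made up 40.7% to 42.5% of all gene reads in runs with pectin and 40.8% to 47.7% without, against 14.1% to 15.8% with pectin and 16.5% to 19.8% without in genes that were not silent. Few exon reads raise this share by construction. Silent genes outside runs had a larger share, at 49.4% to 52.2% with pectin and 52.4% to 61.8% without. The ranges of the classes did not overlap within either group. Both silent classes were chosen at the same threshold, but their levels differed, with medians of 0.0833 RPKM outside runs and 0.0467 RPKM in runs. No such read was found in 246 genes of the runs, while 166 genes had more reads outside exons than on them.

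One gene gave a large part of these reads. It lies on LHCL01000068 from 639 to 1315 on the minus strand, the first positions of that contig, with 324 coding bases in 2 exons and 353 bases between them, and was chosen after its values were seen. It had 135, 181 and 260 reads outside exons with pectin and 186, 169 and 196 without, but 1 exon read in all 6 libraries together and no read joining its exons. The groups overlapped. Without it, reads outside exons made up 35.9% to 38.5% of gene reads in runs with pectin and 37.9% to 44.8% without. The next gene, on LHCL01000043 from 182825 to 184272, had 49, 43 and 65 such reads with pectin and 104, 94 and 61 without, beside 19 exon reads in all.

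All of these genes were silent with pectin by construction, because the rule asked for low means in both groups. Only 29 of the 791 genes passed the filter on low counts of the test across all genes, made with edgeR by quasi-likelihood and adjusted by Benjamini-Hochberg, and the rest were not tested. Of these 29, 1 was called higher and 0 lower with pectin. Among all 9177 genes tested, 9.20% were called higher and 7.00% lower, and nothing is read from the comparison, since the rule used the same exon reads. An unadjusted p under 0.05 was found for 3 of the 29 genes, beside 31.3% of all genes tested. The test without the filter took 653 of the genes and called 7 higher and 3 lower, beside 7.54% higher and 6.09% lower among all 11028 genes it took. DESeq2's Wald test called 6 higher and 3 lower, beside 10.4% and 9.18% of all genes it tested. In reads outside exons 19 genes in runs were tested and 0 were called by edgeR, beside 5.33% higher and 4.74% lower among 8138 genes. There, 2 had an unadjusted p under 0.05, beside 24.6% of all genes, and DESeq2 called 1 higher and 0 lower, beside 6.32% and 5.20%.

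The gene called higher, ZTR_11057, has 1 exon of 1758 bases on LHCL01000066 from 48310 to 50067 on the minus strand. It had 12, 10 and 15 exon reads with pectin and 0, 1 and 2 without, or 0.423 ± 0.0971 and 0.0300 ± 0.0300 RPKM (SD, n = 3 each). The 3 pectin libraries were above every control. The gene was selected on these same reads and passed the low-count filter through the pectin libraries alone, so its values are a description with no test, and without control 2 it was not called. It is the third in a run of 6, from 43881 to 62188, and the other 5 genes together had 1, 0 and 1 exon reads with pectin and 3, 2 and 0 without. The gene that borders this run on the left, from 37752 to 40917, was strongly raised. It had 92.56, 54.68 and 44.81 RPKM with pectin and 0.68, 0.46 and 0.47 RPKM without, with 7.06 as log2 fold change and 0.39 as SE (adjusted p = 0.000134, edgeR), and its call held in all 12 alternatives. The gene on the right border, from 64309 to 66610, was called lower. It had 0.57, 0.56 and 0.66 RPKM with pectin and 1.62, 1.17 and 1.44 RPKM without, with −1.08 as log2 fold change and 0.26 as SE (adjusted p = 0.0308, edgeR). Leaving out any library but control 1 ended this call, and all alternatives gave 0.0208 to 0.120 as edgeR or DESeq2 adjusted p.

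Runs taken from one condition alone differed somewhat. With pectin alone 2282 genes were silent and 1031 of them lay in 250 runs. In controls alone 2157 were silent and 968 of them lay in 233 runs. Of the 1031 genes in pectin-only runs, 128 were at or above 0.5 RPKM in controls, and 2 of these reached 5 RPKM there. Of the 968 genes in control-only runs, 90 were at or above 0.5 RPKM with pectin, and 11 of these reached 5 RPKM. Several of these 11 lay in the same run. In or outside runs, 1952 of the 2282 genes silent with pectin, and of the 2157 silent in controls, were silent in both groups. Nothing particular to runs is read from these counts. Control 1, the library that stands apart in silent genes, moved with these counts. Without it the order turned round, with 100 genes of pectin-only runs at or above 0.5 RPKM in controls and 125 genes of control-only runs at or above it with pectin. Of these, 2 and 17 reached 5 RPKM. These counts use the same levels that define the runs, and no test was made of them.

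In 10 places exactly 1 gene parted silent runs. Of these 10 genes 8 were tested, and edgeR called 1 higher and 2 lower with pectin, beside 9.20% and 7.00% of all genes tested. The 3 called genes were named after their values were seen, and a gene that is silent in one condition only is found there by construction. ZTR_04575, on LHCL01000020 from 188015 to 189490 on the minus strand, stood between runs of 7 and 3 genes. It had 1.40, 2.97 and 0.64 RPKM with pectin and 0.25, 0 and 0 RPKM without, with 4.48 as log2 fold change and 1.01 as SE (adjusted p = 0.0245, edgeR). Leaving out control 2, control 3, pectin 1 or pectin 2 ended the call (adjusted p 0.0797, 0.0531, 0.0599 and 0.0860, edgeR), and all alternatives gave 0.000107 to 0.0860. Without control 1 its fitted log2 change was 8.19, since the other controls held no reads. ZTR_04575 passed the low-count filter through the pectin libraries alone, and its pectin level made it part the runs. Its call is thus a description only.

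ZTR_09712, on LHCL01000102 from 14477 to 16126 on the plus strand, parted runs of 4 and 4 genes and went the other way. It had 0.09, 0.05 and 0.05 RPKM with pectin and 2.09, 1.29 and 0.78 RPKM without, with −4.14 as log2 fold change and 0.57 as SE (adjusted p = 0.00365, edgeR). ZTR_09712 passed the low-count filter through the control libraries alone, and its control level made it part the runs. Its call was present in all 12 alternatives, but for this reason it is a description only. ZTR_01945, on LHCL01000006 from 229259 to 230941, fell as well, with 1.97, 2.52 and 2.41 RPKM with pectin and 7.80, 4.41 and 5.50 RPKM without. Its log2 fold change and SE were −1.19 and 0.24 (adjusted p = 0.0162, edgeR). Leaving out pectin 1 or pectin 2 ended the call (adjusted p 0.0610 and 0.0614, edgeR), and all alternatives gave 0.000337 to 0.0614.

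Runs sat in neighbourhoods of low expression. The 362 genes that border a run had a median of 2.98 RPKM over the 6 libraries, with quartiles of 1.04 and 10.7 RPKM. Their level is partly set by the rule, since one of their group means has to reach 0.5 RPKM. The same limit holds at every distance below, where silent genes were set aside. At 2 to 4 genes from the nearest run the genes that were not silent had a median of 9.13 RPKM, at 5 to 10 genes 13.4 RPKM and at 11 to 20 genes 13.9 RPKM. More than 20 genes away on the same contig the median was 17.7 RPKM, and on contigs without a run 15.5 RPKM. Contig size was not held in these medians, and genes more than 20 away lie only on contigs with over 20 genes. The median over all genes was 2.85 RPKM on contigs with 11 to 25 genes and 6.69 RPKM with 26 to 50. It was 8.66 RPKM on contigs with 1 to 10 genes and 11.3 RPKM with over 200. Distance and contig size were not told apart. The rise over the first steps was found in every library. From 1 gene through 2 to 4 to 5 to 10 genes away, the medians were 2.22, 6.85 and 10.9 RPKM in pectin 1, 2.595, 7.43 and 12.1 in pectin 2 and 2.68, 7.98 and 11.8 in pectin 3. They were 3.915, 9.67 and 14.8 RPKM in control 1, 2.645, 8.57 and 13.2 in control 2 and 2.895, 9.25 and 13.7 in control 3. The share of silent genes followed the opposite course, at 19.1% at 2 to 4 genes, 13.7% at 5 to 10, 12.1% at 11 to 20 and 9.42% beyond 20 on the same contig. Not every neighbour was weak: 27 of the 362 bordering genes reached 50 RPKM in a group mean, and the highest stood at 5167 RPKM. Libraries share these genes, so their agreement is a description of the genome region and not 6 independent findings.

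**Figure D4:**
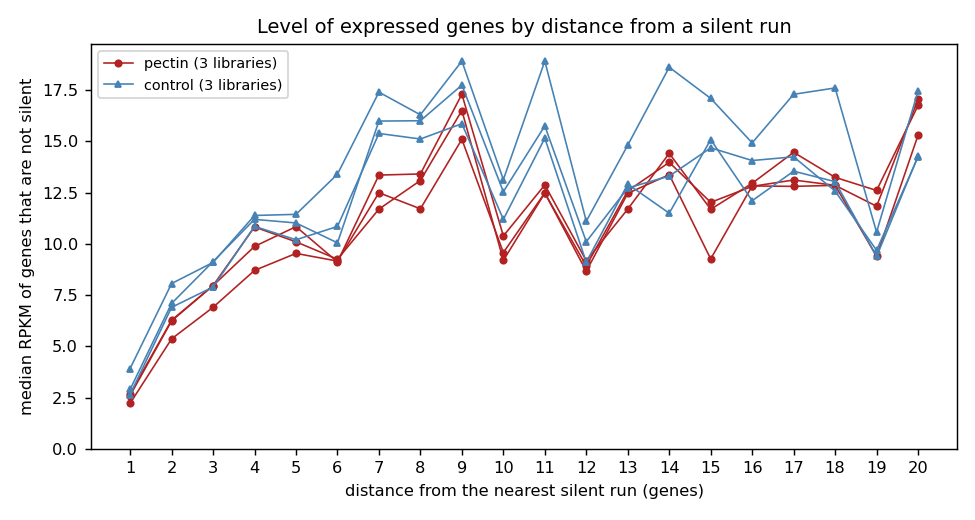
Median RPKM of genes that were not silent (vertical axis) against their distance from the nearest silent run in genes, 1 line per library (circles pectin, triangles control). All 6 lines rise over the first steps, from 2.22 to 3.915 RPKM at distance 1.

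Expressed genes near the runs were called lower with pectin more often than higher, while over all genes tested it was the reverse. Of the 1044 tested genes that lay 1 to 4 genes from a run and were not silent, 58 rose (5.56%) and 96 fell (9.20%). Most of this surplus of lower calls lay at 2 to 4 genes, where 34 of 712 rose (4.78%) and 69 fell (9.69%). The genes directly beside a run were nearly even, with 24 of 332 higher (7.23%) and 27 lower (8.13%), and even or nearly so with the replicate block (37 and 37) and DESeq2 (36 and 35). With library size alone 19 of them were higher and 36 lower. Of the 5731 that lay more than 20 genes away or on a contig without a run, 567 rose (9.89%) and 345 fell (6.02%). At 5 to 10 genes 9.26% rose and 8.06% fell, and at 11 to 20 genes 9.40% and 9.00%. Since neighbours often change together, genes are not independent and no test was made of this difference. The levels of the genes moved with it, as given above, and whether level accounts for it was not tested. Split at 10 RPKM, genes near the runs had fewer rises and more falls than the distant genes on both sides. A single cut does not hold level, which can still differ between near and distant genes within each side. Under 10 RPKM, 4.20% rose and 11.1% fell near the runs, against 7.14% and 8.17% far from them. At 10 RPKM or more, 7.35% rose and 6.68% fell near them, against 11.4% and 4.83%, so that rises outnumbered falls at both distances. Under 10 RPKM the share of falls did not drop steadily with distance. There, 9.39% rose and 8.73% fell at 5 to 10 genes, and 6.43% rose and 13.1% fell at 11 to 20 genes.

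The direction over 1 to 4 genes held when scaling changed, but the contrast with distant genes then lay in size. Scaling by library size alone put the median log2 change over all tested genes at −0.21 and turned the majority to lower calls everywhere. Under it, 44 rose and 132 fell near the runs (4.21% and 12.6%), against 362 and 520 far from them (6.32% and 9.07%). Leaving out 1 library gave 26 to 81 genes higher and 29 to 99 lower near the runs, with more lower than higher genes each time. The counts were 27 and 46 without control 2, 37 and 45 without pectin 1, 26 and 29 without pectin 2, and 51 and 57 without pectin 3. Of the 332 tested genes directly beside a run, 5 rose and 1 fell by at least 16-fold. In all there were 108 and 11 such genes, where 9177 genes were tested. A gene that is silent in one condition only can end a run by construction, and can pass the low-count filter through its higher group alone. Calls and changes of genes directly beside a run are thus a description only.

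**Figure D5:**
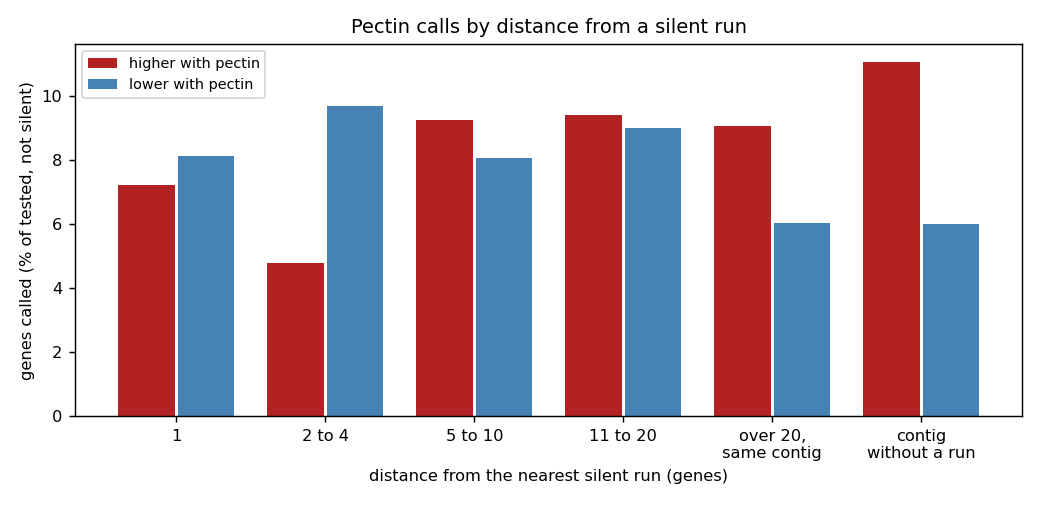
Percentage of tested genes that were not silent and were called higher or lower with pectin (edgeR, adjusted p under 0.05), by distance from the nearest silent run in genes. At 2 to 4 genes 4.78% were higher and 9.69% lower, and on contigs without a run 11.1% and 6.00%.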

How the data were processed

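Poly-A selected RNA of 3 pectin and 3 control cultures was sequenced in paired ends (the labels' protocols). For the aligner, the counter, strand and build the sources used here give no name. Raw read counts per gene (exon, exon-exon, the reads not on exons that the headers call intron reads, total) and RPKM were deposited by the authors, per the file headers. The deposited RPKM equals exon reads per kilobase of exon, scaled by a library total of 1.62e+07 to 1.80e+07 reads, within 1% for 100% of values above 1 RPKM. Every exon length (100%) is a multiple of 3, so lengths here are coding lengths without UTRs.

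Genes were sorted by contig and start, and runs found as described. The members, lists and rules were chosen with earlier results of these data known. Exon reads, and apart from them reads outside exons, entered edgeR 4.0.16 (R 4.3.3, quasi-likelihood, robust, TMM, filterByExpr, group only, all 6 libraries, Benjamini-Hochberg over all genes tested, threshold 0.05). On simulated exon counts for pectin against control (9177 genes) it recovered 30% of 2-fold and 98% of 4-fold changes, and for reads outside exons (8138 genes) 26% and 98%. The simulation gave all genes a common dispersion and used only genes that passed the low-count filter. These rates therefore do not apply to most genes in runs, which did not pass it. Libraries of one group differed beyond sampling noise (chi-square over degrees of freedom, 32.4 to 130). Named were the 6 runs with the most genes (of the 3 runs of 8 genes, the one with the longer span), the run of at least 4 genes with the most exon reads, the longest run with at least 3 genes without reads (the others by count), and called genes. Lists by gene product could not be applied, since no products are paired with the tags. Alternatives included DESeq2 1.42.0. Python 3.11.15 was used for the rest.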

Additional observations from a re-analysis of the deposited data

How the results depend on the processing

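The rule's 791 genes in 197 runs became 504 genes at 0.25 RPKM and 1242 at 1 RPKM, 486 genes in 130 runs with TPM, computed here from exon reads, in place of RPKM, 1257 in 430 runs with at least 2 neighbours and 464 in 88 with at least 4. These follow from the settings. Leaving out 1 library gave 760 to 833 genes in 191 to 207 runs. For exon reads, 844 higher and 642 lower genes became 545 higher and 942 lower with library size only, and 325 to 929 higher and 190 to 707 lower without 1 library. For reads outside exons, 434 and 386 became 220 to 488 and 122 to 423 without 1 library. With the replicate block there were 1163 higher and 1060 lower genes in exon reads, 721 and 725 in reads outside exons, and 100 higher and 138 lower genes at 1 to 4 genes from a run, where 58 and 96 became 26 to 81 and 29 to 99 without 1 library. Replicate numbers are not said to mark pairs, and libraries of number 1, 2 and 3 deviated from their groups with correlations of 0.478, 0.0736 and 0.432. The cause of these shifts was not tested. The alternatives for genes near runs, for genes that part or border them, for runs of one condition and the split at 10 RPKM were chosen after seeing the data. At this depth 0.5 RPKM is 8.89 to 9.94 reads for a gene of median length, so most differences within runs were not detectable.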
